A study of Mus musculus with 2 samples.

Results

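Transcripts of 6 genes of proximal T cell receptor (TCR) signalling, the Src-family kinases Lck, Fyn and Blk, the Tec-family kinase Txk, the kinase Zap70 and the adaptor Lat, were described in single γδ T cells of the mouse lung. They were taken by symbol from 32285 genes, and all 6 were present. The cells came from 2 droplet libraries, 1 per group, of uninfected mice of both sexes aged 5 to 7 weeks. C57BL/6NCrl mice gave the WT library, of flow-sorted lung γδ T cells without a Vγ1 chain. The strain B6.Cg-Tcrgtm1lku(B6.Vg4-/-Vg6-/-), which is null for Vγ4 and Vγ6, gave the KO library, of lung γδ T cells sorted for Vγ1. Cells were grouped by the variable γ gene they transcribed, as 520 WT cells with Tcrg-V6 and no other Tcrg-V gene, 410 WT cells with Tcrg-V4 and no other, and 2880 KO cells with Tcrg-V1, and each group was split by whether a Tmem176b UMI (unique molecular identifier, a count of 1 captured transcript) was read. Sort, genotype, strain and library differed together and cannot be told apart, and with 1 library per group every difference below lacks a replicate check. No test was therefore made, and the 95% intervals given cover counting error only.

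Lck and Fyn phosphorylate the ITAM motifs of the CD3 and ζ chains once the TCR is engaged, and Lck is held at the coreceptors CD4 and CD8. Zap70 then docks on the phosphorylated motifs and phosphorylates Lat, the membrane adaptor on which phospholipase C and exchange factors assemble, while Txk (also called Rlk) acts on phospholipase C. Blk is the Src-family kinase of B lymphoid cells and is also known from γδ T cells that produce IL-17 (γδ17 cells). Tmem176b, a membrane protein with its neighbour Tmem176a, is known as abundant in type 3 lymphocytes, and is used here as a readout of that state from a gene other than Tcrg-V. Its detection still differed between the Tcrg-V groups, as given below.

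All 6 genes are annotated as protein coding on GRCm38. Lck lies on chromosome 4 (129548344 to 129573641, minus strand), Fyn on chromosome 10 (39368855 to 39565381, plus strand) and Blk on chromosome 14 (63372836 to 63417037, minus strand). Txk lies on chromosome 5 (72695978 to 72752777, minus strand), Zap70 on chromosome 1 (36761798 to 36782818, plus strand) and Lat on chromosome 7 (126363824 to 126369570, minus strand). No pair of members shares a chromosome. RefSeq start windows of GRCm38.p6 were matched by symbol for 5 of the 6 genes. Lck has 2 annotated starts 15269 bases apart, known as the distal and the proximal promoter, which the counts, summed per gene, do not separate. The 250 bases before each Lck start are shown because Lck differed between the libraries in every Tcrg-V and Tmem176b class compared below. Those before 1 start each of Txk, Zap70 and Lat are shown because Txk moved with Lck across Tmem176b detection and the other 2 genes moved against it. Capitals mark letters that match a RUNX (TGTGGT), TCF/LEF (CTTTGA), ETS (GGAAGT), ROR (AGGTCA) or SOX (AACAAT) motif on either strand. No matches overlap in the 5 windows printed.
Lck distal start, chr4:129573642-129573891, minus strand: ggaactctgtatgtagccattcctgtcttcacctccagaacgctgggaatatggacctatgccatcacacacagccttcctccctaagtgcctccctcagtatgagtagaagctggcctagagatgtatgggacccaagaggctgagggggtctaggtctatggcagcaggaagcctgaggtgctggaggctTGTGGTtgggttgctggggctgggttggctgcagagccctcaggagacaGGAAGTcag
Lck proximal start, chr4:129558373-129558622, minus strand: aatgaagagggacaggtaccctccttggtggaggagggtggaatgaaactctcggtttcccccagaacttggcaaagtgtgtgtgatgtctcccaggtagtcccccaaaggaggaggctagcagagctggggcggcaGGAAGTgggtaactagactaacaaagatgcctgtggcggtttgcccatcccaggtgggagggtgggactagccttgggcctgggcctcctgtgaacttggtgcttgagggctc
Txk, chr5:72752778-72753027, minus strand: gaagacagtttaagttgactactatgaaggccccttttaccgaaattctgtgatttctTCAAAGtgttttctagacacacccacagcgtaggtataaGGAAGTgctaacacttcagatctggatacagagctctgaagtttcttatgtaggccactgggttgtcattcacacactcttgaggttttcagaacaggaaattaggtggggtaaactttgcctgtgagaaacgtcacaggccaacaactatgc
Zap70, chr1:36761548-36761797, plus strand: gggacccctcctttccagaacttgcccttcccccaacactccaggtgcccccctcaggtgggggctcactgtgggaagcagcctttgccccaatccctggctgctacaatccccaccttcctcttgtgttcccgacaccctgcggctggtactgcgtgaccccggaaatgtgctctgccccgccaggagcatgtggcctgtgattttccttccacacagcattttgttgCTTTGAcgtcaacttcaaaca
Lat, chr7:126369569-126369818, minus strand: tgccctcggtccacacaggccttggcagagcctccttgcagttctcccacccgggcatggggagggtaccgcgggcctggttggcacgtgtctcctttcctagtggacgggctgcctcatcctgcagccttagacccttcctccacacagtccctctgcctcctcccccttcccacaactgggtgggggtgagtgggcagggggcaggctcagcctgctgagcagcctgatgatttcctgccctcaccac

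The distal Lck window held 1 RUNX and 1 ETS match, 58 and 9 bases before the start at their first letter, and the proximal window held 1 ETS match. Txk held 1 ETS and 1 TCF/LEF match, Zap70 held 1 TCF/LEF match, and the Lat window held none of the 5 motifs. Of the windows not printed, the other Txk start held 1 RUNX and 1 ETS match, 1 further Zap70 start held 1 match each of RUNX, SOX and ETS and another held 1 ROR match, and the Fyn window held 1 TCF/LEF match. Such matches are common. Of 32851 windows of the same length, 14.0% held the RUNX letters, 13.8% the TCF/LEF letters, 19.7% the ETS letters, 14.0% the ROR letters and 9.42% the SOX letters.

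After the cell filter 2505 WT and 6634 KO cells remained, at a median of 3288 and 3521 UMIs per cell, and the libraries shared 23 cell barcodes of 2520 and 6688. Tcrg-V6 was read in 30.1% of WT and in 0 of 6634 KO cells, which allows a share of up to 0.0452%, and Tcrg-V1 in 7.82% and 43.4%, both in the direction of the labels. Tcrg-V4 went against the label, with UMIs in 14.9% of KO cells beside 21.4% of WT cells, so the library is called KO-labelled. Among the KO-labelled Tcrg-V1 cells, 21.2% also had a Tcrg-V4 UMI. A Tcrg-V4 transcript alone was therefore a weaker definition than Tcrg-V6, and values of the WT Tcrg-V4-only group carry that limit. The 3 groups had a median of 3602, 3427 and 4186 UMIs per cell, so shares of cells were compared at a depth of 2000 UMIs drawn from each cell, below which lay 37, 25 and 127 cells. Cd3e was read in 95%, 89.3% and 95.4% of the cells of the 3 groups before thinning, and the γδ constant gene Trdc in 52.7%, 39.3% and 50.1%.

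Lck was lowest in the WT Tcrg-V6-only cells and highest in the KO-labelled Tcrg-V1 cells. With a Tmem176b UMI, Lck reached 21.0 UMIs per 1000000 UMIs (CPM; interval 14.9 to 28.9, 38 UMIs in 458 cells) in Tcrg-V6-only cells. It reached 43.5 CPM (28.7 to 63.3, 27 UMIs in 168 cells) in Tcrg-V4-only cells and 170 CPM (158 to 183, 778 UMIs in 911 cells) in KO-labelled Tcrg-V1 cells. The interval of the KO-labelled cells lay above both WT intervals, while the 2 WT intervals overlapped in a narrow range. Without a Tmem176b UMI, Lck stood at 104 CPM (61.4 to 164) in 62 Tcrg-V6-only cells, at 253 CPM (223 to 287) in 242 Tcrg-V4-only cells and at 321 CPM (309 to 333) in 1969 KO-labelled Tcrg-V1 cells. In each of the 3 groups the level was thus higher in the cells without Tmem176b, with intervals that did not overlap. Within γδ17-like clusters, named by markers as given below, the intervals of the 2 classes overlapped in all 3 groups. KO-labelled Tcrg-V1 cells there had Lck at 135 CPM (124 to 148) with and 157 CPM (122 to 200) without Tmem176b. The Tcrg-V6-only and Tcrg-V4-only cells without Tmem176b held only 1 and 4 Lck UMIs there. Most WT Tcrg-V6-only cells had no Lck UMI at all, 12 of 62 without and 24 of 458 with Tmem176b having 1 or more. In KO-labelled Tcrg-V1 cells 17.0% had at least 3 Lck UMIs and the highest cell had 10, against 0.769% and a highest cell of 6 in the Tcrg-V6-only group.

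At one depth, an Lck UMI was read in 2.29% (1.10% to 4.17%) of Tcrg-V6-only, 4.32% (1.75% to 8.70%) of Tcrg-V4-only and 25.1% (22.3% to 28.1%) of KO-labelled Tcrg-V1 cells with Tmem176b. Myeloid cells should lack Lck, and in myeloid-like cells, a cluster named by Lyz2, Csf1r and other markers, the thinned share was 12.8% (4.83% to 25.7%, 47 cells) in the WT and 16.7% (4.74% to 37.4%, 24 cells) in the KO-labelled library, at a median depth of 5365 and 4437 UMIs. The 2 WT shares with Tmem176b were lower than that, and the Tcrg-V4-only interval overlapped the WT myeloid-like one. Whether the Lck UMIs of these WT cells are background cannot be told from this comparison. The myeloid-like cells also carried Lat, at 84.6 CPM (55.3 to 124) in the WT and 129 CPM (81.6 to 193) in the KO-labelled library. Whether their Lck came from doublets or carried-over T cell transcripts was not tested, so their values do not measure a floor. The KO-labelled share with Tmem176b lay inside the wide interval of the myeloid-like cells, although its level of 170 CPM was above their 101 CPM (59.7 to 159). Without Tmem176b the shares were 17.4% (7.82% to 31.4%), 35.4% (29.2% to 42.1%) and 46.7% (44.4% to 49.0%). The first of these was not separated from the myeloid-like share of its library, and the other 2 were above it.

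**Figure D1:**
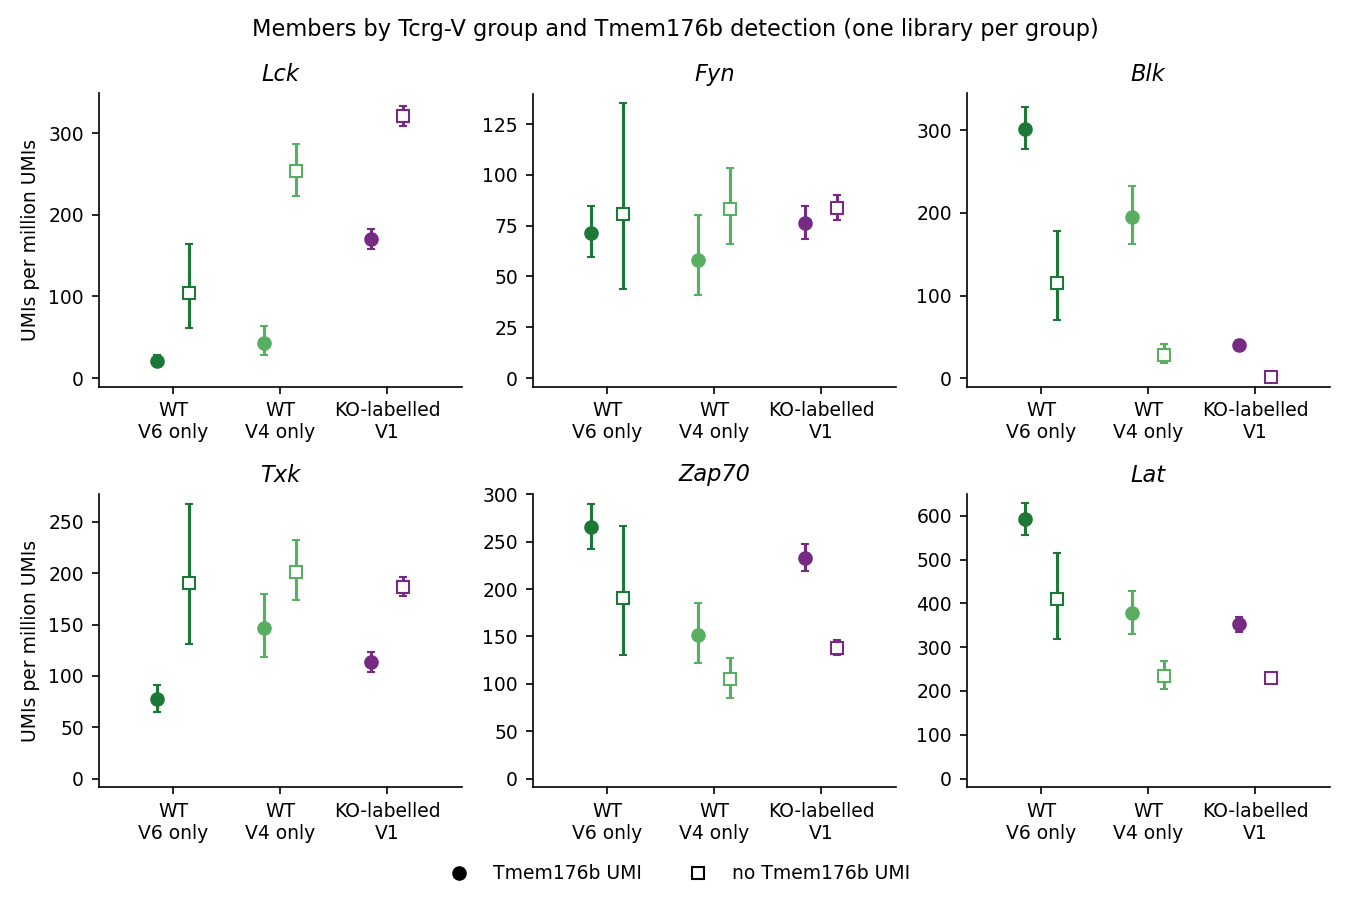
CPM of each of the 6 genes (vertical axes) in the 3 Tcrg-V groups (horizontal axes), with filled circles for cells with a Tmem176b UMI, open squares for cells without, and bars for exact Poisson 95% intervals of counting error. Lck is lower and Blk higher in Tmem176b-positive cells of all 3 groups, and Fyn stays between 58.1 and 83.9 CPM in all 6 sets of cells.

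Blk ran the other way. With a Tmem176b UMI it stood at 302 CPM (277 to 328, 545 UMIs) in WT Tcrg-V6-only cells, at 195 CPM (162 to 233, 121 UMIs) in WT Tcrg-V4-only cells and at 39.6 CPM (34.0 to 45.8, 181 UMIs) in KO-labelled Tcrg-V1 cells. None of these 3 intervals overlapped. Without a Tmem176b UMI the level was 115 CPM (70.4 to 178, 20 UMIs), 28.0 CPM (18.5 to 40.8, 27 UMIs) and 1.23 CPM (0.612 to 2.20, 11 UMIs). All 3 were below the values of the Tmem176b-positive cells of the same group. At one depth Blk was read in 42.8%, 32.1% and 6.19% of Tmem176b-positive cells, and in 15.2%, 7.62% and 0.215% of the others. No myeloid-like cell of either library had a Blk UMI (0 of 57 and 0 of 35 cells, which allows up to 5.26% and 8.57%). By share these cells were too few to set a background below the 6.19% of the KO-labelled cells. By level, the interval of the KO-labelled myeloid-like cells (0 to 20.6 CPM) lay below the 34.0 to 45.8 CPM of the Tmem176b-positive KO-labelled Tcrg-V1 cells. In the cluster named B-like by Cd79a, Ms4a1 and other markers, Blk stood at 172 CPM (102 to 272) in the WT and 187 CPM (116 to 286) in the KO-labelled library.

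Fyn, the other Src-family kinase of the TCR complex, was the flattest of the 6 genes. With Tmem176b it stood at 71.4 CPM (59.6 to 84.9), 58.1 CPM (40.7 to 80.4) and 76.1 CPM (68.3 to 84.6) in the Tcrg-V6-only, Tcrg-V4-only and KO-labelled Tcrg-V1 cells. Without Tmem176b it stood at 80.6 CPM (44.1 to 135), 83.1 CPM (65.9 to 103) and 83.9 CPM (78.0 to 90.1). All 6 intervals had values in common, so no difference in Fyn was detectable between these classes at this depth. With the class set by at least 2 Tmem176b UMIs, Fyn in Tcrg-V4-only cells was lower in the Tmem176b class (-0.94, -1.75 to -0.20). Fyn was higher in shallow cells. In the 2 clusters whose cells were shallow (median 1212 and 1229 UMIs), Fyn reached 361 CPM (299 to 432) in the WT and 335 CPM (290 to 385) in the KO-labelled library, and those clusters held 17, 11 and 50 cells of the 3 groups. Of the 17 Tcrg-V6-only cells, 14 were in the class of 62 cells without Tmem176b. That class had a median of 2620 UMIs per cell, beside 3661 in the Tcrg-V6-only cells with Tmem176b.

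Txk, Zap70 and Lat divided by Tmem176b detection. Txk was lower with than without Tmem176b, at 77.5 against 190 CPM in Tcrg-V6-only, 147 against 201 CPM in Tcrg-V4-only and 113 against 187 CPM in KO-labelled Tcrg-V1 cells. The shallow clusters were high in Txk too, at 367 CPM in the WT and 387 CPM in the KO-labelled library. The Tcrg-V6-only contrasts by Tmem176b thus also differ in depth and in the share of shallow clusters. Zap70 was higher with Tmem176b, at 265 against 190 CPM, 152 against 105 CPM and 233 against 138 CPM. Lat was also higher, at 592 against 409 CPM, 377 against 235 CPM and 352 against 229 CPM. Lat and Zap70, which act in sequence, thus had the same direction in each group, and Txk had that of Lck. The intervals of the ratio held 0 for Zap70 in the Tcrg-V6-only cells (log2 ratio 0.48, -0.03 to 1.04) and for none of the other 8 values.

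The groups were next compared by the log2 ratio of CPM, and a gene was counted as higher or lower where it passed 2-fold. For KO-labelled Tcrg-V1 over WT Tcrg-V6-only cells, Lck had a ratio of 3.26 (2.88 to 3.66), from 28.3 to 270 CPM. Blk had a ratio of -4.33 (-4.57 to -4.09), from 285 to 14.2 CPM. Of 10780 genes with at least 30 UMIs, 81 were at or above Lck and 28 at or below Blk, so both stood near the ends of the distribution. Lat (-1.09, -1.19 to -0.99) was the other member past 2-fold. Txk (0.89, 0.67 to 1.12) and Zap70 (-0.60, -0.74 to -0.46) fell short of it, and the interval of Fyn held 0 (0.17, -0.08 to 0.43). That makes 1 of 6 members higher, where 11.4% of all genes were, and 2 of 6 lower, where 6.76% were. Within either Tmem176b class Lat was short of 2-fold, at -0.75 with and -0.84 without, and Zap70 was at -0.19 and -0.46. The median over all genes tested was 0.10.

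Against WT Tcrg-V4-only cells the ratios of Lck and Blk kept their sign and were smaller. Lck had a ratio of 0.66 (0.48 to 0.84), from 171 to 270 CPM, and Blk one of -2.72 (-3.04 to -2.40), from 93.5 to 14.2 CPM. Zap70 was at 0.47 (0.25 to 0.68), and the intervals of Fyn, Txk and Lat held 0. Of the 6 members 0 were higher by 2-fold, beside 5.28% of all genes, and Blk alone was lower, beside 3.89%. Within the WT library, Tcrg-V4-only over Tcrg-V6-only cells gave 2.60 for Lck (2.18 to 3.04) and 1.04 for Txk (0.77 to 1.32), the 2 members that were higher, beside 5.29% of all genes. Blk (-1.61, -1.88 to -1.35) and Zap70 (-1.07, -1.32 to -0.83) were lower, beside 5.15%, and Lat lay just inside the threshold at -0.99. Among Tmem176b-positive cells alone the same ratio was 1.05 for Lck, 0.92 for Txk, -0.63 for Blk and -0.81 for Zap70, so the last 3 were short of 2-fold there. The 3 comparisons share cells with one another.

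The mix of Tmem176b-positive cells differed between the groups, at 88.1%, 41.0% and 31.6%, so the ratios were also taken within each class. Among Tmem176b-positive cells Lck in KO-labelled Tcrg-V1 cells was above Tcrg-V6-only cells (log2 ratio 3.02, 2.55 to 3.53) and Tcrg-V4-only cells (1.97, 1.42 to 2.58). The WT levels there came from 38 and 27 Lck UMIs, and no floor was measured for Lck. These ratios therefore give a direction and no measured fold. Blk was lower by 7.62-fold (-2.93, -3.18 to -2.68) and 4.93-fold (-2.30, -2.64 to -1.96). Both genes thus kept their direction within Tmem176b-positive cells. Among cells without Tmem176b, Lck differed less (1.63 and 0.34) and Blk more (-6.55 and -4.51), the last from 11 UMIs in the KO-labelled cells. Among Tmem176b-positive cells of γδ17-like clusters, Lck stood at 20.3 CPM in Tcrg-V6-only, 12.6 CPM (7 UMIs) in Tcrg-V4-only and 135 CPM in KO-labelled Tcrg-V1 cells. The ratio of the 2 WT groups there held 0 (-0.69, -2.10 to 0.50), and those of the KO-labelled cells over each of them did not (2.74, 2.25 to 3.27, and 3.43, 2.38 to 4.75). The KO-labelled level again lay inside the interval of the myeloid-like cells, with a thinned share of 20% (17.2% to 23.2%) beside their 16.7%. Blk in the same cells was at 303, 215 and 46.7 CPM. Fyn, whose interval held 0 in the other ratios between the libraries given here, was at 0.63 (0.05 to 1.25) over the Tcrg-V4-only cells of these clusters, from 27 WT UMIs. Txk, which was higher in all KO-labelled Tcrg-V1 cells than in Tcrg-V6-only cells, had a ratio of 0.55 with and of -0.02 without Tmem176b.

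**Figure D2:**
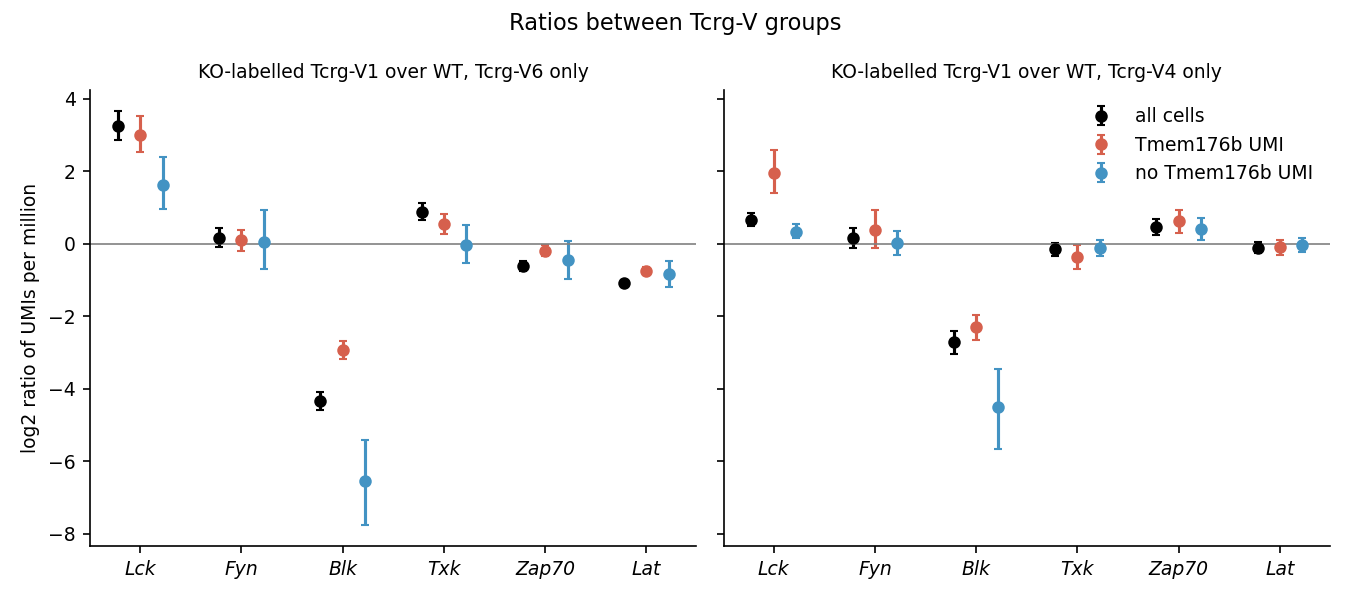
Log2 ratios of CPM (vertical axis) of each gene in KO-labelled Tcrg-V1 cells over WT Tcrg-V6-only cells (left) and over WT Tcrg-V4-only cells (right), for all cells (black), cells with a Tmem176b UMI (red) and cells without (blue), with exact conditional 95% intervals. Lck lies above 0 and Blk below 0 in all 6 comparisons, and Fyn spans 0 in all 6.

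Within each group, cells with a Tmem176b UMI were set against cells without. Lck had a ratio of -2.30 (-3.15 to -1.41) in Tcrg-V6-only, -2.54 (-3.17 to -1.96) in Tcrg-V4-only and -0.91 (-1.03 to -0.80) in KO-labelled Tcrg-V1 cells. The KO-labelled interval did not overlap either WT interval. With the class set by at least 2 Tmem176b UMIs the Tcrg-V6-only ratio was -1.26 (-2.09 to -0.38) beside -1.02 (-1.16 to -0.89) in the KO-labelled cells, and with detection after thinning -1.52 (-2.36 to -0.65) beside -0.97 (-1.10 to -0.83), so those intervals overlapped. Blk had ratios of 1.39 (0.75 to 2.11), 2.80 (2.19 to 3.46) and 5.01 (4.14 to 6.04), the last over only 11 UMIs in the Tmem176b-negative cells. In Tcrg-V6-only cells Blk was the 1 member higher, beside 7.36% of all genes, and Lck and Txk (-1.29) were lower, beside 8.74%. Blk there was at 0.83 with at least 2 Tmem176b UMIs and 0.45 with detection after thinning, and Txk at -0.71 and -0.60, all short of 2-fold. Without myeloid-like, B-like and shallow clusters Txk was at -0.86. Among Tcrg-V4-only cells Blk was higher, beside 4.21%, and Lck lower, beside 6.82%. For KO-labelled Tcrg-V1 cells Blk was higher, beside 6.37%, and 0 members were lower by 2-fold, beside 5.19%. With detection after thinning Blk was at 2.05 in Tcrg-V4-only and 3.27 in KO-labelled Tcrg-V1 cells, and with at least 2 Tmem176b UMIs at 1.74 and 3.80.

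The summed level of 11 γδ17 markers (Il17a, Il23r, Ccr6, Tmem176a and others, with none at 0 in the Tmem176b-positive cells) moved with these values. It was 4347 CPM with and 3277 CPM without Tmem176b in Tcrg-V6-only cells, 2458 and 578 CPM in Tcrg-V4-only cells, and 1652 and 209 CPM in KO-labelled Tcrg-V1 cells. Tmem176a, the neighbour of Tmem176b, is among the 11, so this sum is not independent of the split, and no sum without it is given. The 5 αβ T cell markers, among them Trbc1 and Cd8b1, moved the other way, at 659 and 835 CPM, 824 and 1137 CPM, and 761 and 1511 CPM. Of these Cd4 was at 0 in both Tmem176b classes of the Tcrg-V6-only cells and in the Tmem176b-positive Tcrg-V4-only cells. Summed cytotoxic markers (7 genes) were at 81.4 and 242 CPM, 88.7 and 463 CPM, and 146 and 146 CPM in the same order. Summed myeloid markers (7 genes) were at 317 and 213 CPM, 414 and 667 CPM, and 300 and 147 CPM. The part of these lists in the values of the members was not tested.

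Detection also followed the number of Tmem176b UMIs after thinning. Among KO-labelled Tcrg-V1 cells Lck was read in 45.1% of 2056 cells with 0 Tmem176b UMIs, in 29.3% of 294 with 1, in 20.3% of 187 with 2 and in 19.9% of 186 with 3 to 5. Blk went from 0.632% to 5.10%, 6.42% and 8.07% over the same cells. From 2 Tmem176b UMIs on the intervals of Lck overlapped, and its share was near the 16.7% of the myeloid-like cells. In Tcrg-V4-only cells Lck fell from 31.5% of 257 cells with 0 to 4.05% of 74 cells with 1 Tmem176b UMI, and Blk went from 10.1% to 32.4%. In Tcrg-V6-only cells Lck was at 9.09% and 2.56%, and Blk at 27.3% and 47.0%, with no further order above 1 Tmem176b UMI.

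**Figure D3:**
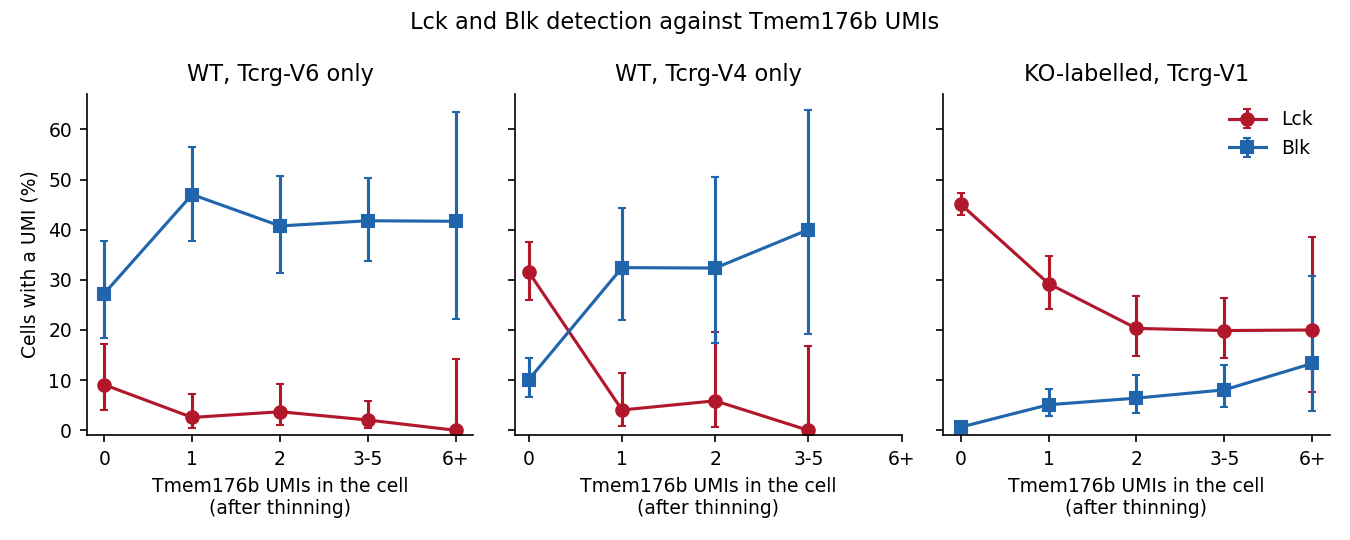
Share of cells with an Lck (red circles) or Blk (blue squares) UMI, in percent (vertical axis), against the number of Tmem176b UMIs in the cell after thinning to 2000 UMIs (horizontal axis), in the 3 Tcrg-V groups, with Clopper-Pearson 95% intervals. In KO-labelled Tcrg-V1 cells Lck lies above Blk at every number of Tmem176b UMIs, and in Tcrg-V6-only cells Blk lies above Lck.

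Lck and Blk were then asked for in the same cell, against the number that the product of their separate shares gives. Over the 868 thinned WT cells of both groups, 104 had Lck, 263 had Blk and 4 had both, where the product gave 31.5 (odds ratio 0.0781, 0.0206 to 0.210). Of 4740 genes read in at least 50 of these cells, 29 had a lower odds ratio with Lck than Blk did, and 12.3% were under 0.5. Over the 2753 thinned KO-labelled Tcrg-V1 cells 1094 had Lck, 59 had Blk and 11 had both, where the product gave 23.5 (odds ratio 0.341, 0.159 to 0.670). There 12 of 7897 genes had a lower odds ratio with Lck, and 1.04% were under 0.5. Seen from Blk, which few of these cells had, 966 of the 7897 genes (12.2%) had a lower odds ratio with Blk than Lck did, so the pairing was not near the end of that distribution, whereas in the WT cells 4 of 4740 did. The 2 kinases were therefore found together less often than their shares give in both libraries.

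The shortfall was also taken within each Tmem176b class, and the intervals of the 2 classes overlapped in each of the 3 groups. In the Tmem176b-positive cells 3 had both where the product gave 4.28 in Tcrg-V6-only cells (odds ratio 0.567, 0.0933 to 2.52). In Tcrg-V4-only cells it was 1 where the product gave 2.25 (0.342, 0.00725 to 2.93), and in KO-labelled Tcrg-V1 cells 9 where it gave 13.8 (0.567, 0.240 to 1.20). All 3 intervals held 1, so no exclusion was detectable at this depth in any of the 3 Tmem176b-positive classes. Over all WT cells with Tmem176b, whatever Tcrg-V gene was read, the interval was below 1 (odds ratio 0.350, 0.140 to 0.771, 1113 cells), and over all KO-labelled ones it held 1 (0.584, 0.307 to 1.04, 1443 cells). Over the 1012 WT cells without Tmem176b, 2 had both where the product gave 27.4 (odds ratio 0.0427, 0.00505 to 0.162). Of all thinned WT cells, those in γδ17-like clusters made up 469 of the 485 with Blk and 32 of the 411 with Lck. Pooled WT sets thus mix clusters that differ in both genes, and exclusion among cells of one kind cannot be read from them either. In Tcrg-V4-only cells without Tmem176b 79 had Lck, 17 had Blk and 0 had both, where the product gave 6.02 (odds ratio 0, up to 0.405), the one class of the 6 whose interval lay below 1. Of that class, 55 thinned cells were in γδ17-like clusters, and they held 15 of the cells with Blk and 2 of those with Lck. The class thus mixed clusters that differed in both genes, and exclusion among cells of one kind cannot be read from it. In the KO-labelled Tcrg-V1 cells without Tmem176b only 4 had Blk, and 2 of them had Lck. Summed over the classes, the product gave 13.8 cells with both for the 4 WT classes, beside 4 observed, and 15.7 for the 2 KO-labelled classes, beside 11. In clusters named γδ17-like the odds ratio was 0.646 (0.261 to 1.46) over 1251 WT cells and 0.827 (0.450 to 1.44) over 1286 KO-labelled cells. Without thinning, cells with both made up 5.45%, 2.15% and 2.85% of the cells with either in the 3 groups. They were deep cells, at a median of 7081, 6622 and 6228 UMIs, and whether they were doublets was not tested.

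**Figure D4:**
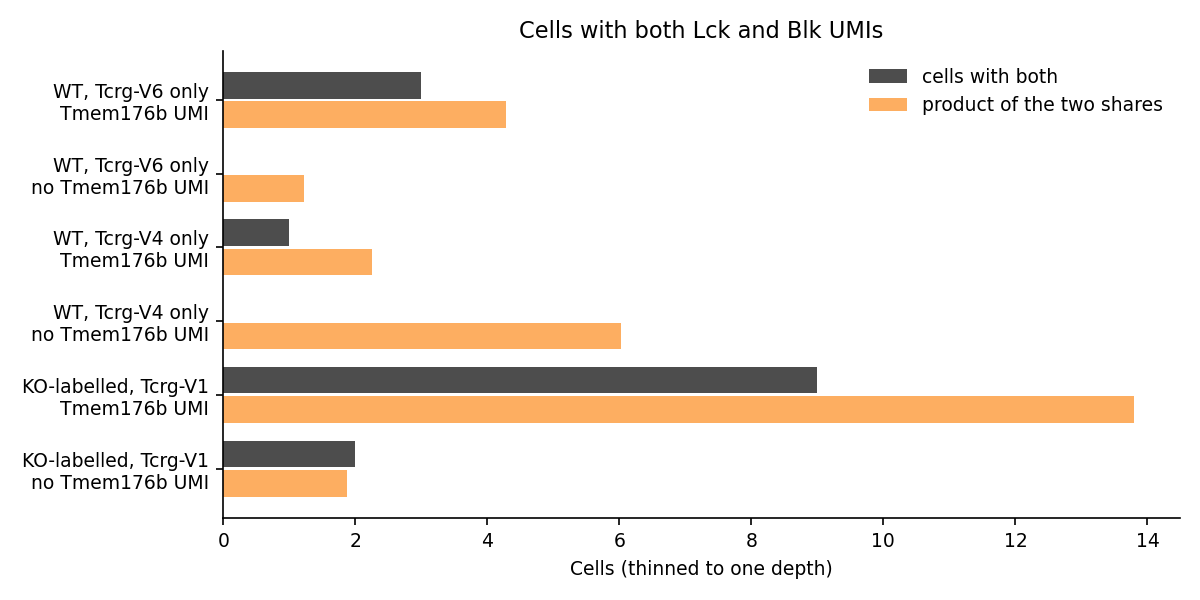
Thinned cells with both an Lck and a Blk UMI (grey bars) beside the number that the product of the separate shares gives (orange bars), in cells (horizontal axis), for each Tcrg-V group split by Tmem176b detection. In WT Tcrg-V4-only cells without Tmem176b 0 cells lie beside a product of 6.02, and in Tcrg-V6-only cells without Tmem176b 0 beside 1.22.

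The other members were paired in the same way. In WT cells of both groups Lck was read more often with Txk (39 cells, product 23.6, odds ratio 2.30, 1.45 to 3.62), and less often with Lat (0.410, 0.259 to 0.639) and Zap70 (0.522, 0.309 to 0.855). With Fyn its interval held 1 (1.56, 0.869 to 2.7). Blk went with Lat (1.47, 1.09 to 2.0) and Zap70 (1.46, 1.07 to 2.0), so Zap70 and Lat sided with Blk against Lck over both groups together. Within the Tcrg-V6-only cells alone all of these intervals held 1. Within the Tcrg-V4-only cells alone those of Lck with Txk (1.76, 1.03 to 2.99) and with Lat (0.557, 0.321 to 0.949) did not, and the others held 1. In KO-labelled Tcrg-V1 cells Blk also went with Lat (2.45, 1.40 to 4.35) and Zap70 (1.88, 1.06 to 3.28), and Lck was below 1 with Lat (0.755, 0.643 to 0.886) and held 1 with Zap70 (1.03, 0.863 to 1.23). Within the Tmem176b-positive ones the intervals of Blk with Lat (1.66, 0.917 to 3.06) and Zap70 (1.31, 0.710 to 2.36) held 1. Lck stayed below 1 with Lat there (0.635, 0.461 to 0.872) and was just above 1 with Fyn (1.56, 1.009 to 2.385). Its intervals with Txk and Zap70 held 1.

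The cells were also clustered without the members, the TCR genes and Tmem176b, which gave 11 clusters. Clusters 4 and 5 were γδ17-like by 9 markers each, cluster 7 myeloid-like and cluster 10 B-like, and the others were left unnamed. In cluster 4, Lck stood at 18.3 CPM (13.2 to 24.8) in its 695 WT cells and at 137 CPM (128 to 147) in its 1297 KO-labelled cells, and Blk at 205 CPM (187 to 225) and 40.5 CPM (35.5 to 45.9). The intervals of the libraries did not overlap for either gene. The KO-labelled Lck level lay inside the interval of the KO-labelled myeloid-like cells (59.7 to 159 CPM), so it was not separated from theirs. The WT level lay below the WT myeloid-like interval (65.8 to 139 CPM), so the myeloid-like cells do not measure a floor for Lck. In unnamed clusters 0, 1 and 3, which held most KO-labelled cells, Lck stood at 253 to 418 CPM in WT and 297 to 453 CPM in KO-labelled cells, and Blk at no more than 1.63 CPM. Those levels were above the myeloid-like intervals of both libraries. Of the Tmem176b-positive cells, 98.7%, 92.3% and 79.1% of the 3 groups were in γδ17-like clusters, and of the others 48.4%, 25.6% and 4.88%.

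**Figure D5:**
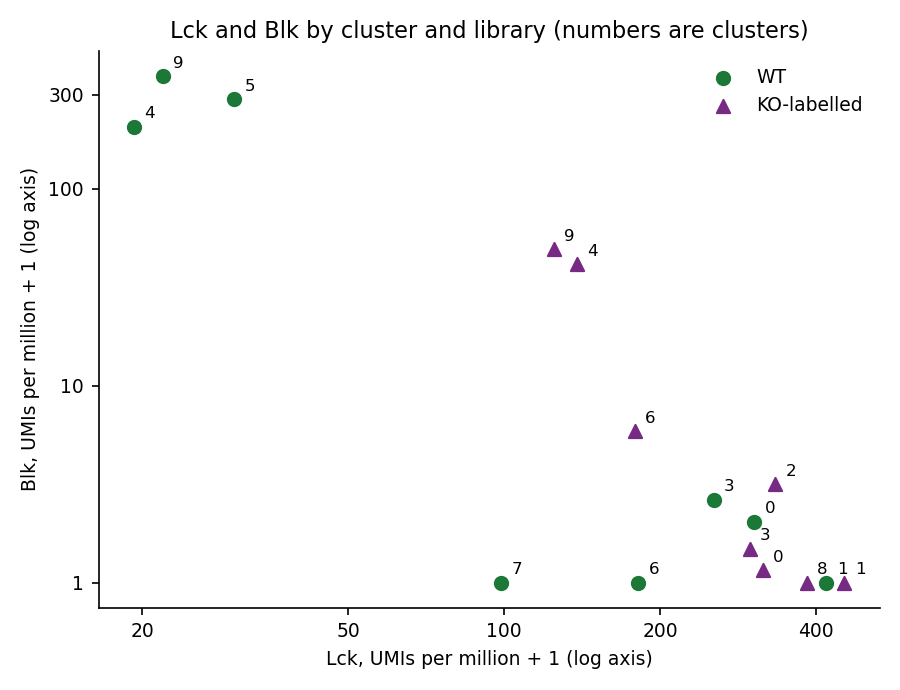
Lck (horizontal) against Blk (vertical), both as CPM plus 1 on log axes, in each cluster of at least 50 cells per library, with circles for WT, triangles for KO-labelled cells and the cluster number beside each point. WT cells of clusters 4, 5 and 9 lie at high Blk and low Lck, KO-labelled cells of clusters 4 and 9 lie between, and the remaining points lie at low Blk.

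Over these 16 sums of at least 50 cells, Lck and Blk had a Pearson r of -0.88, Zap70 and Lat of 0.69, Blk and Zap70 of 0.59 and Fyn and Lat of -0.75. The sums share libraries and depth, so these are descriptions. Of 8071 genes with at least 300 UMIs, the 5 most like Lck over the same sums were Ctsw (0.96), a cysteine protease of cytotoxic lymphocytes, Card6, Cd6, Sh2d1a and Gimap6 (0.93 each). Those most like Blk were Abi3bp (0.98), Adam12 (0.97), Trmt61b (0.96), Il23r, the receptor chain for IL-23, and Ret (0.95 each). Those most like Fyn were Rnf130, Zfand3, Fcho2 and Ttc7b (0.97 each) and Ythdf3 (0.96), and the shallow clusters hold the highest Fyn values among these sums.

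Around the members, 47 further genes of the same signalling step were counted in 5 lists. In KO-labelled Tcrg-V1 over WT Tcrg-V6-only cells, 42 had at least 30 UMIs, and 14 were higher and 1 lower by 2-fold, beside 11.4% and 6.76% of all genes. Among the other Src-family kinases 0 of 3 were higher and Yes1 was lower (-1.05, -1.52 to -0.56), while Lyn, best known from myeloid and B cells, was at -0.98 (-1.25 to -0.71). Of the receptor chains and coreceptors 4 of 8 were higher, namely Fcer1g, Cd4, Cd8a and Cd8b1, the last at 3.29 (2.45 to 4.30), and Cd247, which encodes the ζ chain, was at -0.72 (-0.82 to -0.61). Cd4 had 48 UMIs against 0 in Tcrg-V6-only cells, so its ratio of 1.23 is a bound. Fcer1g had 8 UMIs in Tcrg-V6-only cells, and over Tcrg-V4-only cells it was lower (-1.73, -1.97 to -1.49). The CD3 chain Cd3g was at -0.37 (-0.43 to -0.31).

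Of 16 adaptors and exchange factors 5 were higher, among them Sh2d1a (SAP), which recruits Fyn to SLAM receptors, at 3.95 (3.17 to 4.86), and Themis, which is needed in thymocyte selection, at 2.80 (2.17 to 3.52). The median of that list was 0.04, beside 0.10 over all genes. Of 13 inhibitors and phosphatases 5 were higher, Ptprc, Ubash3a, Cblb, Cd5 and Cd6 (3.29, 2.40 to 4.36), with a median of 0.65. Csk, the kinase that inhibits Lck and Fyn, was at -0.53 (-0.71 to -0.34), and Sla, an adaptor that lowers TCR levels, at -0.91 (-1.09 to -0.73). Of the Syk and Tec kinases 0 passed 2-fold, and Tec was at -0.34 (-0.70 to 0.02).

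The same genes were set against Tmem176b detection. In KO-labelled Tcrg-V1 cells 3 of 42 were higher and 8 lower in the Tmem176b-positive cells, beside 6.37% and 5.19% of all genes. Sit1, a membrane adaptor, rose from 13.5 to 55.1 CPM (2.03, 1.71 to 2.36) and Src from 1.56 to 10.7 CPM (2.78, 1.90 to 3.75), while Themis (-1.76, -2.04 to -1.49), Sh2d1a (-1.45, -1.67 to -1.24) and Ubash3a (-1.63, -2.07 to -1.21) had the direction of Lck. Csk was higher with Tmem176b, from 79.9 to 138 CPM (0.79, 0.63 to 0.94). In Tcrg-V4-only cells 2 of 35 were higher and 9 lower, beside 4.21% and 6.82%, and in Tcrg-V6-only cells 2 of 31 were higher and 4 lower, beside 7.36% and 8.74%. Against Tcrg-V4-only cells, KO-labelled Tcrg-V1 cells had 4 of 43 higher and 4 lower, beside 5.28% and 3.89%. Within the WT library 8 of 37 were higher and 0 lower in Tcrg-V4-only over Tcrg-V6-only cells, beside 5.29% and 5.15%.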

How the data were processed

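Lung γδ T cells of 2 libraries were profiled on the 10x Genomics platform. The authors deposited raw UMI counts per gene and barcode, made with Cell Ranger on mm10 (GRCm38), version 7.0 by the submitters' processing notes and 7.0.0 by the file headers, with an older release named in the methods. The methods name a 5′ V(D)J kit and the labels a 3′ protocol. For annotation release, intron counting and strand the setting was not given in the sources used here.

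Cells with over 200 and under 4000 genes and under 10% mitochondrial UMIs were kept, as in the methods, which left more cells in both libraries than the study gives. No doublet caller was run. Coordinates came from GENCODE M21 (32235 of 32285 gene identifiers matched), and start windows from RefSeq on GRCm38.p6. UMIs were summed over cells and scaled to 1000000 (CPM). Ratios had exact conditional intervals, sums exact Poisson and shares exact Clopper-Pearson intervals, all at 95%. Groups at 0 were given the limit of 3 counts. Genes with at least 30 UMIs over both groups were compared, and 2-fold was the threshold of a count. Cells were thinned without replacement to 2000 UMIs (seed 0), leaving out 380 WT and 828 KO-labelled cells, for shares and odds ratios (conditional, exact intervals).

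Clustering used 2000 variable genes, 30 components, 15 neighbours and Leiden resolution 0.5, leaving out TCR and sex-linked genes, Tmem176a, Tmem176b, the members and the signalling lists. A marker counted at 1.5-fold and in 10% of cells, a name needed at least 3 markers, and a cluster was shallow under 0.5 of its library's median depth, rules set after the clusters were seen. Python 3.11.15 was used with scanpy 1.11.5, numpy 2.4.6, scipy 1.17.1 and pandas 2.3.3. The steps were tested on simulated data.

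The members and lists were chosen with earlier results of these data known. Named genes were the 6 members, the 2 highest and 2 lowest log2 ratios of each list in KO-labelled Tcrg-V1 over WT Tcrg-V6-only cells (all where fewer than 5 passed) and the 5 genes most like Lck, Fyn and Blk. One gene that this rule names is not reported here. Genes named beside a count of 5 or fewer were chosen after their values were seen. Alternatives changed the cell filter, the Tcrg-V definition, the thinning, the scaling, the weighting of cells and the cells included. With 1 library per group no replicate could be left out.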

Additional observations from a re-analysis of the deposited data

Results flagged for a closer look

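Cells outside the 3 Tcrg-V groups, mostly cells with no or several Tcrg-V genes read, entered none of the comparisons between those groups and carried both kinases above what 0 UMIs would allow. After thinning, Lck was read in 24.4% of these WT cells and in 40.5% of these KO-labelled cells, and Blk in 17.7% and 1.44%. The levels were 173 and 280 CPM for Lck and 110 and 8.73 CPM for Blk. In the WT cells with a Tmem176b UMI, Lck stood at 47.4 CPM and Blk at 203 CPM, and in those without at 256 and 49.1 CPM. In the KO-labelled cells the values were 177 and 31.6 CPM with Tmem176b, and 305 and 3.21 CPM without.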

How the results depend on the processing

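No paired analysis was possible because only 1 library was made per group. For KO-labelled Tcrg-V1 over WT Tcrg-V6-only cells, the log2 ratio of Lck (3.26) was 3.79 without the top 5% of cells by UMIs, 1.63 in cells without and 2.74 in γδ17-like cells with Tmem176b. That of Blk (-4.33) was -4.61 when the groups were judged over 3 Tcrg-V genes, -2.93 with and -6.55 without Tmem176b, and -2.70 in γδ17-like cells with Tmem176b. Over WT Tcrg-V4-only cells Lck (0.66) was at 1.97 with and 0.34 without Tmem176b, 3.43 in γδ17-like cells with Tmem176b and 0.86 as a mean over cells. Blk (-2.72) was at -2.17 with at least 2 UMIs of the Tcrg-V gene, -2.30 with and -4.51 without Tmem176b, and -2.20 in γδ17-like cells with Tmem176b. Neither gene changed sign in these 4 ratios under any alternative. The odds ratio of Lck and Blk in WT cells (0.0781) was 0.455 with and 0 without Tmem176b and 0.834 in γδ17-like cells with Tmem176b. In KO-labelled Tcrg-V1 cells (0.341) it was 0.130 in cells with Tcrg-V1 alone of 3 Tcrg-V genes, 0.805 in γδ17-like cells with Tmem176b, and turned to 1.14 in cells without Tmem176b, from 2 cells with both. Smaller ratios that changed sign were Fyn (0.15 to -0.15) and Lat (-0.10 to 0.000457) over Tcrg-V4-only cells with at least 2 UMIs of the Tcrg-V gene, Txk (0.89 to -0.024) over Tcrg-V6-only cells without Tmem176b, and Fyn by Tmem176b in Tcrg-V6-only cells (-0.18 to 0.15) without myeloid-like, B-like and shallow clusters. The settings with γδ17-like clusters and without these clusters were chosen after seeing the data. The causes were not tested. Depth limits the Tcrg-V6-only cells without Tmem176b (62 cells) and Blk in KO-labelled cells without it (11 UMIs).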
